A study of Mus musculus with 4 samples.

Results

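The 9 genes described here encode 3 groups of mitogen-activated protein (MAP) kinases: the JNK genes Mapk8, Mapk9 and Mapk10, the p38 genes Mapk11, Mapk12, Mapk13 and Mapk14, and the ERK genes Mapk3 and Mapk7. They were taken by symbol from a table of 38713 genes, and all 9 were found. RNA was sequenced from 4 cultured mouse mammary tumor cell lines of the C57BL/6 strain, with 1 library per line. The 2 JNK_WT lines (genotype p53-/-, replicates 1 and 2) came from mice in which Wap-Cre deleted floxed Trp53. The 2 JNK_KO lines (genotype p53-/- JNK-/-, replicates 1 and 3) came from mice in which the same Cre deleted floxed Trp53, Mapk8 and Mapk9, so loss of Trp53 was common to both groups. Wap-Cre is active in luminal mammary epithelium from lactation on, and deletion therefore took place in the animal before the tumors arose. The tumor cells were first plated on collagen I and then grown on plastic without further treatment. Ages at tumor harvest were not used here.

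MAP kinases are the last step of a relay in which a MAP kinase kinase kinase activates a MAP kinase kinase, which in turn phosphorylates the MAP kinase on a threonine and a tyrosine. JNK and p38 respond mainly to stress and inflammatory cytokines, whereas ERK kinases respond mainly to growth factors. JNK1 (Mapk8) and JNK2 (Mapk9) are found in most tissues and overlap in function, while JNK3 (Mapk10) is known mainly from neurons, heart and testis. In mammary epithelium JNK is known for its part in the death of detached cells.

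The threonine and tyrosine that switch these kinases on are separated by 1 residue, which is proline in JNK, glycine in p38 and glutamate in ERK. The codons around this site are shown because they give both the group of each member and the degree to which short reads can tell the members apart. Each line is the coding strand of the GENCODE M21 principal transcript (GRCm38), 5′ to 3′, over 15 codons, with the 3 codons of the threonine, the middle residue and the tyrosine in capitals.
Mapk8: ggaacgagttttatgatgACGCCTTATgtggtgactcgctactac
Mapk9: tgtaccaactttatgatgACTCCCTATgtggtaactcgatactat
Mapk10: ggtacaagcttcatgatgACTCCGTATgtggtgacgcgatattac
Mapk11: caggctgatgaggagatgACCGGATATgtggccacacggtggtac
Mapk12: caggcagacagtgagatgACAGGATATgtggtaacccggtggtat
Mapk13: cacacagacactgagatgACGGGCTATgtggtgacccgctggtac
Mapk14: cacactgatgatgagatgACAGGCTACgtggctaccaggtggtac
Mapk3: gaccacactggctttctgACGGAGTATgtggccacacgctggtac
Mapk7: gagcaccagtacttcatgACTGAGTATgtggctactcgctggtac

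The threonine is residue 183 in the products of Mapk8 and Mapk9, 221 in that of Mapk10, 180 in those of Mapk11, Mapk13 and Mapk14, 183 in that of Mapk12, 203 in that of Mapk3 and 219 in that of Mapk7. In this window of 45 bases Mapk8 matched Mapk9 at 35 positions and Mapk10 at 36. Over their coding sequences the JNK genes were 75.4% to 75.8% identical, and the longest run shared by any pair of their transcripts was 23 bases. No stretch of 40 bases, the read length used for these libraries, was shared exactly between any of the 9 principal transcripts. When 2 mismatches were allowed, 5 of 2548 such stretches of Mapk8 matched another member, 5 of 4636 of Mapk9 did and 0 of 7157 of Mapk10 did. At this read length the 3 JNK genes were therefore distinct at nearly every position.

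Values are FPKM, that is, fragments scaled to transcript length and to the number of mapped fragments, which allows levels of different genes to be compared per length. Steps of low values put the depth at about 43500000 and 52400000 reads in JNK_WT replicates 1 and 2 and at about 41300000 and 59900000 reads in JNK_KO replicates 1 and 3. All 10 luminal epithelial markers were above 7 FPKM in every line, from Elf3 (7.41 to 19.2 FPKM) to Krt18 (385 to 1466 FPKM). The 5 endothelial markers together reached at most 1.02 FPKM. The 7 leukocyte markers summed to 22.0 and 3.67 FPKM in JNK_WT and to 3.63 and 9.79 FPKM in JNK_KO, most of it Cd68 (2.65 to 19.95 FPKM), a macrophage marker, while the pan-leukocyte marker Ptprc was at most 0.0134 FPKM. Basal epithelial markers varied within both groups, summing to 25.9 and 732 FPKM in JNK_WT and to 37.9 and 376 FPKM in JNK_KO. Among the mesenchymal markers limma called 0 of the 9 tested, beside 0% of all genes. Of these, 5 (Dcn, Col6a1, Pdgfra, Pdgfrb and Zeb1) were higher in both JNK_KO lines than in either JNK_WT line, against 18.3% of all genes. Each of the 5 had a limma p under 0.05 before adjustment, against 4.75% of all genes that were higher at that level. Twist1 was lower, against 16.7% of all genes, and Vim, Zeb2 and Col1a2 overlapped. Lum, Col1a1, Col3a1 and Fap missed the filter and were not tested. The summed level of all 13 listed was 382 and 92.1 FPKM in JNK_WT and 682 and 391 FPKM in JNK_KO. The summed level of 10 luminal markers was 4113 and 3204 FPKM in JNK_WT and 1355 and 2848 FPKM in JNK_KO. By gene, the groups overlapped for 7 of the 10, and 0 had an unadjusted limma p under 0.05. Both JNK_KO lines were lower for 2 (Krt8 and Epcam), against 16.7% of all genes, and higher for 1 (Elf3), against 18.3%. The part of these differences in the results below was not tested, and in bulk RNA fewer cells of a type cannot be told apart from less RNA per cell. Trp53, the gene floxed in all lines, had 1.55 and 4.15 FPKM in JNK_WT and 5.72 and 4.28 FPKM in JNK_KO.

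To ask what becomes of the other MAP kinase genes when Mapk8 and Mapk9 are deleted, each member was compared between genotypes on log2(FPKM + 1), JNK_KO minus JNK_WT. The scale understates changes of low genes. Of the 9 members, 8 reached 1 FPKM in at least 2 libraries and were tested, and Mapk10 did not. No tested member was called at a limma adjusted p-value under 0.05 with a difference over 0.75, beside 0% of the 12998 genes tested. Without adjustment, 2 of the 8 had p under 0.05 and were lower, against 2.89% of all genes, and 0 were higher, against 4.75%. These were Mapk8 and Mapk9, the genes that were deleted. The same pair alone differed by more than 0.75, with 2 lower members against 6.43% of all genes and 0 higher against 9.25%. Both JNK_KO lines lay below both JNK_WT lines for 3 of the 8 (Mapk8, Mapk9 and Mapk11), against 16.7% of all genes, and above them for 0, against 18.3%. With 2 lines against 2, an exact permutation test cannot give a p-value below 0.333, and a missing call does not show that a gene did not change.

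**Figure D1:**
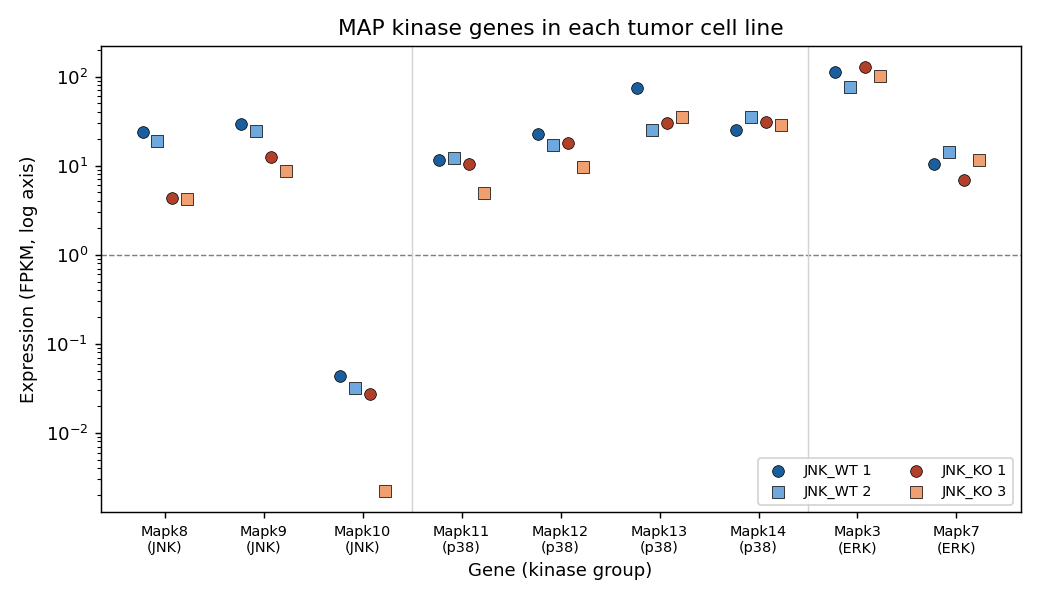
FPKM (log axis) of the 9 kinase genes in each of the 4 lines, with 1 point per library and a dashed line at 1 FPKM. Mapk8 and Mapk9 are lower in both JNK_KO lines, Mapk10 lies below 0.05 FPKM in every line, Mapk11 is lower in JNK_KO mainly in replicate 3, and the genotypes overlap for the other 5 genes.

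Mapk8, the JNK1 gene (mm10 chromosome 14, 33377898 to 33447158, minus strand), was at 23.9 and 19.1 FPKM in the JNK_WT lines and at 4.30 and 4.27 FPKM in the JNK_KO lines. The 2 JNK_KO lines were nearly equal, and the groups were far apart. The JNK_KO mean of 4.28 ± 0.0245 FPKM (SD, n = 2) was 19.9% of the JNK_WT mean of 21.5 ± 3.40 FPKM (SD, n = 2). The log2 difference was -2.08 (SE 0.29, 95% interval -2.85 to -1.32), and adjustment over the 12998 genes took its limma p-value from 0.00123 to 0.191. Only 59 of the 12998 genes had a difference this low or lower.

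Mapk9, the JNK2 gene (plus strand of chromosome 11, 49846751 to 49886421), stood at 29.7 and 24.3 FPKM in JNK_WT and at 12.6 and 8.66 FPKM in JNK_KO. More of its RNA remained than of Mapk8, and the JNK_KO lines differed from each other by 1.46-fold. The JNK_KO mean was 39.4% of the JNK_WT mean, and the log2 difference was -1.28 (SE 0.31, 95% interval -2.11 to -0.45, limma adjusted p-value 0.429). The intervals of the differences of Mapk8 and Mapk9 overlapped, and the difference between them was not tested. Neither gene was at 0. A value per gene sums over all exons, and the exons that Cre removes are not resolved in it, so RNA that lacks the floxed part and RNA that keeps it cannot be told apart. JNK protein, which these values do not measure, was not detected in the paper's immunoblots of JNK_KO tumor cells. By the read value of each library, the JNK_KO levels stand for about 460 and 661 reads on the principal Mapk8 transcript of 2587 bases and 2440 and 2420 reads on that of Mapk9 (4675 bases), which is far above the counts at which sampling decides a value.

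Mapk10, the JNK3 gene (chromosome 5, 102907948 to 103211334, minus strand), was at 0.0430 and 0.0315 FPKM in JNK_WT and at 0.0275 and 0.00221 FPKM in JNK_KO. All 4 lines were near 0, and neither JNK_KO line exceeded a JNK_WT line. On its principal transcript of 7196 bases these levels amount to about 13.5 and 11.9 reads in JNK_WT and to 8.19 and 0.952 reads in JNK_KO, the last being about 1 read. The log2(FPKM + 1) difference was -0.032, without a test, since the gene missed the filter. A rise of Mapk10 in JNK_KO lines was thus not seen, and differences among values this low, which rest on few reads, were not tested. The 8 neuronal markers in the table summed to between 16.0 and 24.3 FPKM, with both JNK_KO lines above both JNK_WT lines. Most of the sum was Map2 (10.8 to 20.7 FPKM), which was lowest in JNK_KO replicate 1. Eno2 was at 1.55 to 3.77 FPKM, and Stmn2 at 6.14 FPKM in JNK_KO replicate 1 and at most 0.450 FPKM elsewhere. Syt1 was at most 0.296 FPKM, Snap25, Rbfox3 and Nefm at most 0.0312 FPKM, and Nefl was listed at 0 in all 4 lines.

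Together the 3 JNK genes summed to 53.7 and 43.5 FPKM in JNK_WT and to 17.0 and 12.9 FPKM in JNK_KO. The JNK_KO mean of the sum, 14.9 ± 2.84 FPKM, was 30.8% of the JNK_WT mean, 48.6 ± 7.25 FPKM (SD, n = 2 each). In JNK_WT the sum was shared almost alike in both lines, with Mapk8 at 44.6% and 44.0% and Mapk9 at 55.3% and 55.9%. In JNK_KO Mapk9 made up 74.5% and 67.0% of what remained. Mapk10 was at most 0.163% of the sum in any line.

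**Figure D2:**
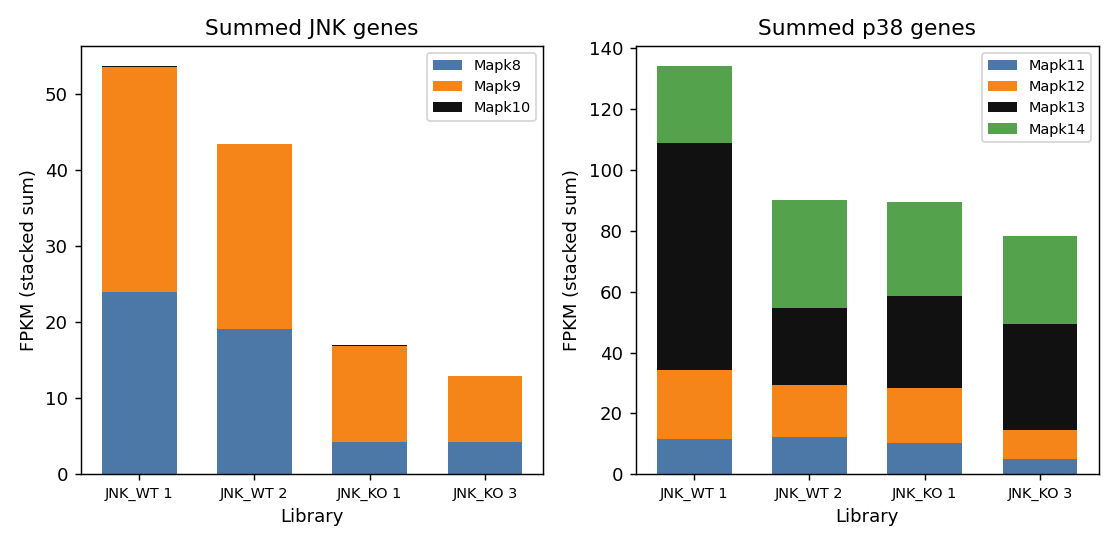
Stacked FPKM of the 3 JNK genes (left) and the 4 p38 genes (right) in each line, with linear axes from 0. The JNK sum falls from 53.7 and 43.5 to 17.0 and 12.9 FPKM with Mapk10 too low to show, and the p38 sum stands out in JNK_WT replicate 1, where the Mapk13 segment is tallest.

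The p38 genes encode kinases activated by the same kinds of stress as JNK. Mapk14, the p38α gene and the form best known for stress responses in most tissues (plus strand of chromosome 17, 28691329 to 28748406), stood at 25.1 and 35.4 FPKM in JNK_WT and at 31.0 and 28.9 FPKM in JNK_KO. Both JNK_KO values fell between the JNK_WT values. The log2 difference was 0.0043 (SE 0.28, limma adjusted p-value 0.999), slightly below 0 under upper quartile or quantile scaling. Its 95% interval, -0.74 to 0.75, leaves room for a change of moderate size in either direction.

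Mapk13, the p38δ gene that is expressed mostly in epithelia (plus strand of chromosome 17, 28769297 to 28780233), was the p38 gene that varied most between lines of the same genotype. It was at 74.9 and 25.3 FPKM in JNK_WT, a 2.95-fold gap, and at 30.1 and 34.8 FPKM in JNK_KO. The JNK_KO values lay between those of the JNK_WT lines. The log2 difference of -0.42 (SE 0.56, limma adjusted p-value 0.994) rested on JNK_WT replicate 1, and without that line it was 0.34, while without JNK_WT replicate 2 it was -1.18.

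Mapk11 and Mapk12, the p38β and p38γ genes, lie 1782 bases apart on the minus strand of chromosome 15 (Mapk12 from 89130584 to 89140703 and Mapk11 from 89142486 to 89149628). Mapk11 was at 11.6 and 12.3 FPKM in JNK_WT and at 10.4 and 4.99 FPKM in JNK_KO. Mapk12 was at 22.5 and 16.9 FPKM in JNK_WT and at 17.9 and 9.63 FPKM in JNK_KO. Both genes were lowest in JNK_KO replicate 3, and the groups overlapped for Mapk12 but not for Mapk11. The log2 differences were -0.65 (SE 0.41, limma adjusted p-value 0.885) for Mapk11 and -0.54 (SE 0.39, limma adjusted p-value 0.933) for Mapk12. Without JNK_KO replicate 3 they were -0.18 and -0.12, and without JNK_KO replicate 1 they were -1.11 and -0.95. The ratio of Mapk11 to Mapk12 stayed between 0.514 and 0.729 in the 4 lines, whereas that of Mapk13 to Mapk14, which lie 20890 bases apart, ran from 0.717 to 2.98.

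Summed over its 4 genes, p38 RNA was 134 and 90.0 FPKM in JNK_WT and 89.4 and 78.3 FPKM in JNK_KO. The JNK_KO mean was 74.8% of the JNK_WT mean, and 93.2% without JNK_WT replicate 1. Mapk13 and Mapk14 together made up the larger part of the sum in every line. The share of Mapk13 ranged from 28.2% to 55.8% and that of Mapk14 from 18.7% to 39.3%, both extremes being in the JNK_WT lines.

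Mapk3, which encodes ERK1 (chromosome 7, 126759601 to 126765819, plus strand), was the most abundant member in all 4 lines. It was at 112 and 75.6 FPKM in JNK_WT and at 128 and 101 FPKM in JNK_KO, with overlapping groups. The log2 difference was 0.30 (SE 0.30, 95% interval -0.50 to 1.10, limma adjusted p-value 0.978), and leaving out JNK_WT replicate 2 gave 0.017 while leaving out JNK_WT replicate 1 gave 0.58. Mapk7 (minus strand of chromosome 11, 61488812 to 61494406) encodes ERK5, a larger kinase with a long tail after the kinase domain (806 residues, against 380 for the Mapk3 product). It was at 10.5 and 14.1 FPKM in JNK_WT and at 6.84 and 11.7 FPKM in JNK_KO. JNK_KO replicate 1 was lowest, and the groups overlapped. The log2 difference was -0.40 (SE 0.38, 95% interval -1.40 to 0.61, limma adjusted p-value 0.973), and it was -0.047 without JNK_KO replicate 1 and -0.74 without JNK_KO replicate 3. Mapk7 shares exon sequence with Mfap4 on the opposite strand (50 of 2980 stretches of 40 bases), but Mfap4 was at most 0.0136 FPKM. Mapk3 shares 19 of 1761 such stretches with Gm15546, Gm5675 and Gm7746, and Mapk11 shares 17 of 2422 with 1638 other genes. How the authors' counting divided reads from these stretches was not tested.

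**Figure D3:**
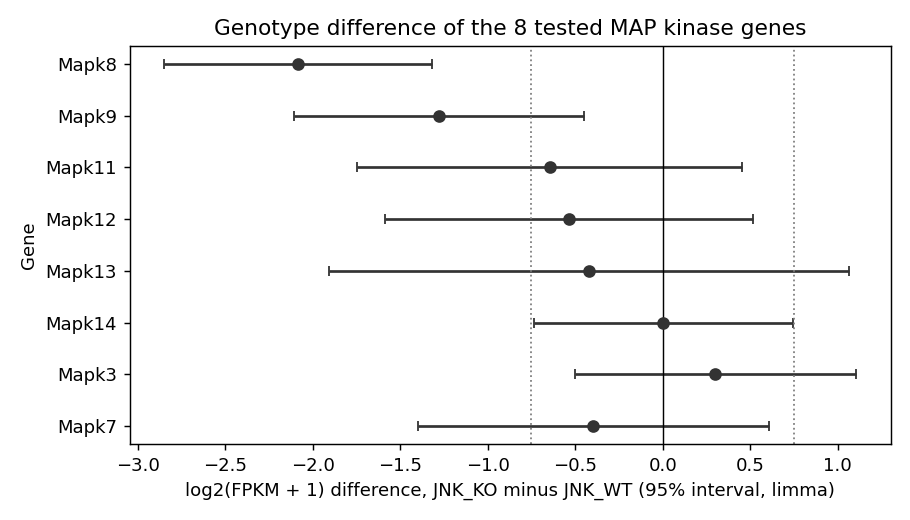
Difference in log2(FPKM + 1), JNK_KO minus JNK_WT, of the 8 tested kinase genes with 95% limma intervals over 4 libraries. Dotted lines mark a difference of 0.75 in either direction. Intervals of Mapk8 and Mapk9 lie wholly below 0 before adjustment, and those of the other 6 genes cross it.

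In order of mean level, the JNK_WT lines had Mapk3 first, then Mapk13, Mapk14, Mapk9, Mapk8, Mapk12, Mapk7, Mapk11 and Mapk10. In JNK_KO the order was Mapk3, Mapk13, Mapk14, Mapk12, Mapk9, Mapk7, Mapk11, Mapk8 and Mapk10. The first 3 places and the last were thus unaltered, and Mapk8 moved from rank 5 to rank 8. In JNK_WT the ranges of neighbours in this order overlapped for Mapk13 with Mapk14, Mapk14 with Mapk9, Mapk8 with Mapk12 and Mapk7 with Mapk11. In JNK_KO they overlapped for Mapk13 with Mapk14 and along the run from Mapk12 through Mapk9 and Mapk7 to Mapk11. In both groups Mapk3 lay above and Mapk10 below every other member.

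To see whether a member moved alone or with its stretch of chromosome, it was set beside the tested genes that start within 1000000 bases of its own start. Levels are given relative to the mean of the 4 libraries on log2(FPKM + 1). Mapk7 and its surroundings had nearly the same profile. Mapk7 was at 0.00019, 0.40, -0.55 and 0.15 in JNK_WT replicates 1 and 2 and JNK_KO replicates 1 and 3, and the median of its 27 neighbours was at 0.069, 0.44, -0.64 and 0.12. All 27 neighbours were lower in JNK_KO than in JNK_WT (median log2 difference -0.55), in a chromosome whose 1047 tested genes had a median of -0.20. This rested on JNK_KO replicate 1 and JNK_WT replicate 2, for the median was -0.17 without the first and -0.31 without the second, with 20 and 24 of the 27 genes lower. Map2k3 lies within that distance of Mapk7, and its own 29 neighbours, taken from an overlapping window, had a median of -0.56.

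The deleted genes did not follow their surroundings. The median difference was 0.038 for the 6 neighbours of Mapk8, against -2.08 for the gene, and -0.12 for the 16 neighbours of Mapk9, against -1.28. Mapk11 and Mapk12 were at -0.79 and -0.68 in JNK_KO replicate 3, where the median of the 22 neighbours of either gene was -0.099. The medians around Mapk3, Mapk13 and Mapk14 were between -0.13 and -0.058.

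**Figure D4:**
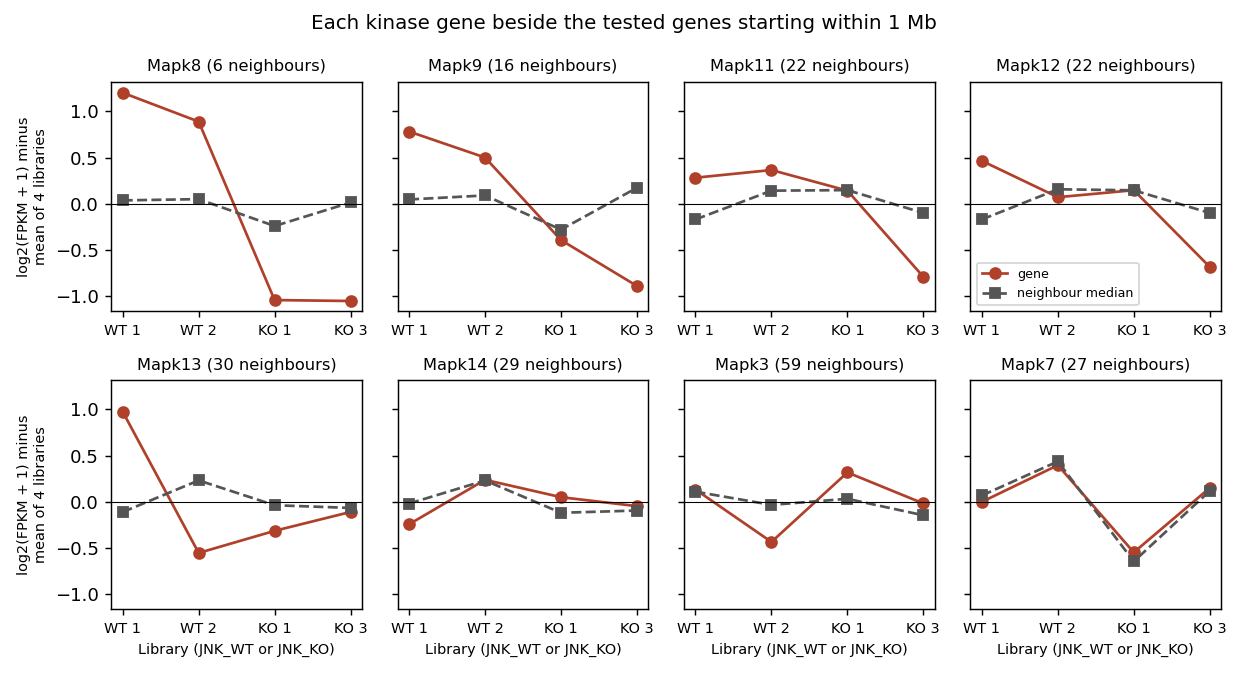
Level of each tested kinase gene (circles) and the median of tested genes that start within 1 Mb (squares), as log2(FPKM + 1) minus the mean of the 4 libraries. Lines only join the libraries for reading. The profiles nearly coincide for Mapk7, whereas Mapk8 lies above its neighbours in both JNK_WT lines and below them in both JNK_KO lines, and Mapk13 stands above its neighbours in JNK_WT replicate 1 alone.

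By likeness of profile over the 4 libraries (root mean square difference of mean-centred log2 levels), the genes closest to Mapk8 were Gm22002, Creb5 and Gm26265, at 0.054, 0.091 and 0.15. Creb5, which encodes a transcription factor of the ATF/CREB family, was at 5.29 and 3.79 FPKM in JNK_WT and at 0.387 and 0.491 FPKM in JNK_KO. The other two are annotated as an miRNA and an snoRNA gene of 125 and 133 bases and were listed at 0 in both JNK_KO lines. With 4 points such likeness is a description only.

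The rest of the pathway was examined through 8 lists (97 genes in the table, 86 of them tested). By limma 0 of the 86 were called. Without adjustment 1 gene was higher and 3 were lower at p under 0.05, which is 4.65% of the 86 against 7.63% of all genes tested. The groups did not overlap for 16 higher and 18 lower genes, 39.5% of the 86 against 35.0% of all genes. The median difference of the 86 genes was -0.016, against 0.013 for all genes.

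Among the MAP kinase kinases, which phosphorylate the members directly, 7 of 7 were tested and 0 had an unadjusted p under 0.05. Map2k4, the kinase that activates JNK and can also act on p38, was at 32.2 and 35.0 FPKM in JNK_WT and at 14.5 and 28.6 FPKM in JNK_KO. Map2k7, the activator specific to JNK, was at 16.7 and 17.2 FPKM in JNK_WT and at 18.3 and 24.6 FPKM in JNK_KO. Among the 7 genes, the groups did not overlap for 1 lower gene (Map2k4) and 1 higher gene (Map2k7), against 16.7% and 18.3% of all genes. The limma adjusted p-values of these 2 genes were 0.843 and 0.961. Map2k4 was lowest in JNK_KO replicate 1, where the median of its 4 tested neighbours was also lowest (-0.52). Map2k3 and Map2k6, which activate p38, had log2 differences of -0.33 and -0.22. The differences were 0.11 and -0.17 for Map2k1 and Map2k2, which activate ERK1, and -0.14 for Map2k5, which activates ERK5. Groups overlapped for all 5 of these genes.

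Of the MAP kinase kinase kinases 21 of 23 were tested and 0 had an unadjusted p under 0.05. Both Map3k15 (4.29 and 1.18 FPKM in JNK_WT, 0.716 and 0.287 FPKM in JNK_KO) and the mixed-lineage kinase gene Map3k9 (6.17 and 3.62 against 0.999 and 2.85 FPKM) had lower values in JNK_KO, with limma adjusted p-values of 0.743 and 0.752. Scaffold proteins hold the kinases of a relay together, and 10 of 12 were tested. Their largest differences were 1.43 for Arrb1 (limma adjusted p-value 0.556), an arrestin that binds receptors and MAP kinases, and 0.78 for Ksr1 (0.734), a scaffold of the ERK relay. Arrb1 was at 0.999 and 2.14 FPKM in JNK_WT and at 8.07 and 4.03 FPKM in JNK_KO, and it was the 1 gene of the 86 that was higher at an unadjusted p under 0.05.

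Kinases activated by MAP kinases were all tested (11 of 11), with 0 at an unadjusted p under 0.05. Mapkapk3, a target of p38, was at 25.8 and 10.7 FPKM in JNK_WT and at 42.1 and 38.3 FPKM in JNK_KO, and Rps6ka6, a member of the RSK family, was at 12.0 and 10.3 against 1.18 and 6.71 FPKM. Their log2 differences were 1.22 and -1.57 (limma adjusted p-values 0.659 and 0.719). The 9 tested phosphatases that switch MAP kinases off had a median of -0.27 and 0 at an unadjusted p under 0.05. Dusp16, which acts mainly on JNK and p38, was at 26.1 and 22.5 FPKM in JNK_WT and at 4.73 and 15.8 FPKM in JNK_KO (log2 difference -1.37, limma adjusted p-value 0.714). The atypical MAP kinase genes Nlk and Mapk6 had differences of -0.59 and 0.22.

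The transcription factor substrates (15 of 16 tested) had a median of 0.091, with Atf7 at 4.29 and 3.90 FPKM in JNK_WT and at 1.85 and 1.65 FPKM in JNK_KO. Atf7, a relative of the JNK substrate ATF2, had a log2 difference of -0.89 (SE 0.30, unadjusted limma p 0.0349, limma adjusted p-value 0.581). The other named substrate, Jund, had overlapping groups, with a log2 difference of -0.56.

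Genes that commonly follow ERK activity had the lowest median of the 8 lists, -0.73 over 13 tested genes. The groups did not overlap for 4 lower genes and 1 higher gene, against 16.7% and 18.3% of all genes. None of the 13 was called by limma (0), and 2 were lower at an unadjusted p under 0.05, against 2.89% of all genes. These 2 were Etv5, an ETS transcription factor, at 62.2 and 90.7 FPKM in JNK_WT and 36.8 and 23.7 FPKM in JNK_KO (limma adjusted p-value 0.458), and Spry2, a feedback inhibitor of receptor signaling named after its values were seen, at 20.8 and 29.2 against 13.5 and 12.9 FPKM. Dusp6, the ERK phosphatase, was at 85.5 and 207 FPKM in JNK_WT and at 72.0 and 38.4 FPKM in JNK_KO (limma adjusted p-value 0.711). Values of Dusp6, Etv5 and Spry2 were highest in JNK_WT replicate 2. Mapk3 itself was lowest in that line and its group values overlapped. ERK activity is not measured by RNA, and the paper's immunoblots found ERK activation similar in JNK_WT and JNK_KO tumor cells.

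**Figure D5:**
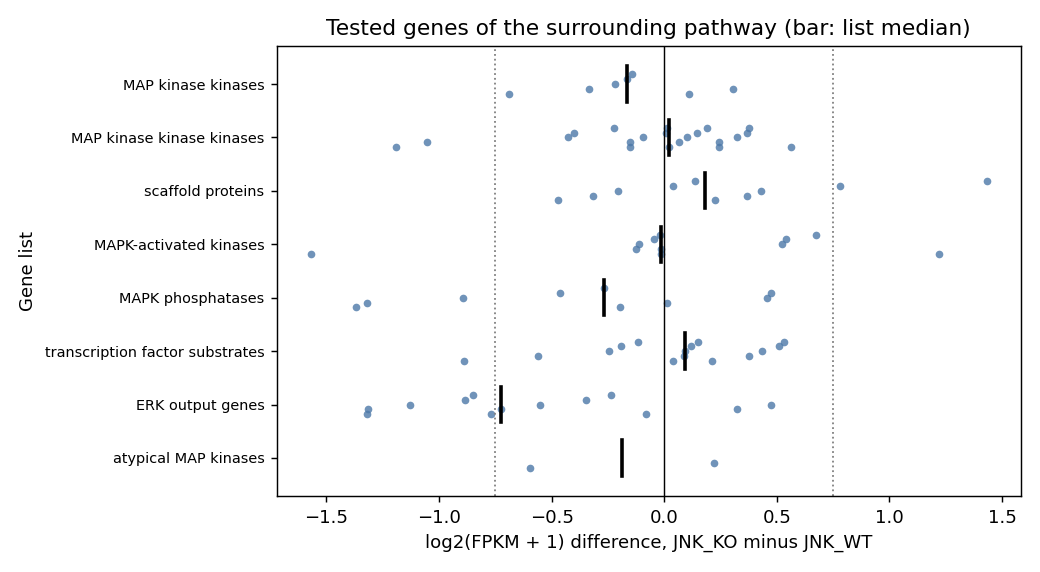
Difference in log2(FPKM + 1), JNK_KO minus JNK_WT, of each tested gene in the 8 lists of the surrounding pathway, with 1 point per gene, a bar at the list median and dotted lines at 0.75 in either direction. Most lists are centred near 0, and the ERK output genes have a median of -0.73.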

How the data were processed

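By the paper, single-end reads of 40 bases were trimmed with Trimmomatic and, to compare all groups of the study, sampled with seqtk. They were aligned to mm10 with TopHat2 2.0.14 and Bowtie2, and FPKM were estimated with Cufflinks 2.2.1, with replicates not pooled. TopHat2, Bowtie2 and Cufflinks are also listed in the submitters' processing notes. The deposited values were FPKM, 1 per gene and library. The annotation used was not given in the sources used here, nor was strandedness. Of 38741 rows, 27 with symbols turned into dates and 1 without values were left out. The study's own differential test, Cuffdiff, works on alignments and was not run.

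Genes reaching 1 FPKM in 2 or more libraries were tested with limma 3.58.1 (intensity trend, two-sided) in R 4.3.3 on log2(FPKM + 1), with Benjamini-Hochberg adjustment. Calls needed an adjusted p under 0.05 and a difference over 0.75. The labels number separate tumor lines; whether p-values reflect more than the spread between these lines cannot be said.

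Positions and transcripts were from GENCODE M21 (GRCm38, which mm10 denotes). The value of 1 read was the most common product of FPKM and length among low values of genes with a single transcript. It is an estimate and covers counting only. Members and lists were chosen with earlier results of these data known. Named genes were the members, the MAP kinase kinases, the 2 genes with the largest difference in each other list and the 3 genes most like Mapk8. Figures used matplotlib 3.10.9.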

Additional observations from a re-analysis of the deposited data

How the results depend on the processing

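No paired analysis was run, because the replicate numbers count separate tumor lines and do not pair a JNK_WT line with a JNK_KO line. The count of called kinase genes was 0 under all 14 alternatives run, as was that of pathway genes under the 12 it was computed for. Mapk8 and Mapk9 stayed lower in each. Leaving out 1 replicate gave -2.24 to -1.93 for Mapk8, -1.53 to -1.03 for Mapk9, -1.18 to 0.34 for Mapk13, -0.24 to 0.24 for Mapk14 and 62.5% to 93.2% for summed p38 as a share of JNK_WT. Mapk14, at 0.0043, became -0.012 under upper quartile scaling and -0.021 under quantile normalization. Mapk10, at -0.032, became -0.26 with a pseudocount of 0.1 and -0.062 with 0.5, by construction of the scale. Over all genes, calls rose from 0 to 10 and 14 with pseudocounts of 0.1 and 0.5 and to 14 without the intensity trend. The cause of these rises was not tested. The looser threshold of an adjusted p under 0.1 gave 25 calls in the main fit, where the smallest limma adjusted p-value was 0.0515. The medians of neighbours without 1 replicate were added after the data were seen.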
